A study of Mus musculus with 60 samples.

Results

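Mucin-type O-glycosylation starts when a polypeptide N-acetylgalactosaminyltransferase (a Galnt gene product) moves GalNAc from UDP-GalNAc onto a serine or threonine in the Golgi. The genes described here are 10 members of this family listed as a peptide-preferring group: Galnt1, Galnt2, Galnt3, Galnt4, Galnt5, Galnt6, Galnt12, Galnt13, Galnt14 and Galnt16. That name stands for a preference for peptide without earlier sugar. It need not hold alike for each enzyme and was not measured here. The genes were chosen by name, through the RefSeq transcript that each probe set cites. No measured value was used as a rule, though earlier results of these data were known. All 10 were measured, each by 1 probe set, among 909 named genes on 963 named probe sets of 1246 on the array. The probe sets of Galnt12 and Galnt13 carry the suffix that marks probes shared by several transcripts.

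The enzymes are membrane-bound Golgi proteins with a catalytic domain and, at the other end, a lectin domain that can hold GalNAc already placed on a substrate. Members that prefer bare peptide act first on a protein, and follow-on members then fill neighbouring sites. The sugar is next built into core structures, sialylated or sulfated, so the set of enzymes in a tissue bears on which mucin sites are occupied. The 10 genes fall into close pairs and trios by sequence: Galnt1 with Galnt13, Galnt2 with Galnt14 and Galnt16, Galnt3 with Galnt6, and Galnt4 with Galnt12, while Galnt5 stands alone.

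Total RNA from mouse tissues was measured on 60 custom Affymetrix glycan-gene arrays from 18 animals in 18 groups. Brain, intestine, lymph node and thyroid came from St6galnac2 wild-type (WT, +/+) and knockout (KO, -/-) mice. Kidney, mammary gland, testes and thymus came from WT mice and mice labelled as double knockouts (DKO) of B4galnt1 and B4galnt2. A further 3 C57 WT animals gave brain and small intestine. St6galnac2 encodes a sialyltransferase that acts on O-linked GalNAc, and B4galnt1 and B4galnt2 encode beta-GalNAc transferases of gangliosides and of the Sda antigen, so none of the deleted genes belongs to the family studied here. The labels give no age, and 4 of the 7 mammary gland samples came from males. Each tissue of the main comparisons came from 1 line alone, so a difference between a tissue of one line and a tissue of the other cannot be told apart from a difference between the lines.

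Levels are given as log2 probe-set values, on which 1 unit is a 2-fold difference. A level can be compared between tissues for 1 gene, but not between genes, since each probe set has its own response. Over all named probe sets and arrays the 25th percentile was 4.45 and the 75th was 7.90. Array medians lay between 5.30 and 5.76. In total 56 arrays matched their labelled tissue best over 890 probe sets of other genes (median r 0.94, lowest 0.52). Another 4 did not and were left out of the comparisons: 1 WT brain array and the WT intestine array of animal 9099, whose profiles matched intestine (r = 0.957) and brain (r = 0.947), and the WT thymus arrays of N3740 and N3738, which matched their label at r = 0.046 and r = 0.061. Values with all 60 arrays are given where they change a call. In whole tissue, fewer cells of a type and less RNA per cell cannot be told apart.

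Marker lists were read as mean log2 levels. The 8 neural markers ranged from 8.87 to 9.16 in brain and from 3.98 to 6.14 elsewhere, and the 3 intestinal epithelial markers from 12.83 to 13.22 in intestine and from 5.45 to 6.50 elsewhere. Galntl5, a testis gene of this family, lay at 11.39 or above in every testes array. The arrays labelled thymus did not carry T-cell markers: the mean of 4 measured (Il2ra, Il7r, Ccr7, Ccr9) was 3.55 to 4.07 there against 4.88 to 7.79 in lymph node, while the 6 connective-tissue markers were at 9.79 to 10.43, above the brain, intestine, lymph node, kidney, testes and thyroid arrays. "Thymus" below is therefore the label only. Chga, a hormone-granule gene, was at 12.73 to 13.06 in 4 thyroid arrays and at 7.79 and 5.77 in those of KO animals 9100 and 9361. The probe sets of the targeted genes did not separate the genotypes: St6galnac2 lay at 8.65 and 8.74 in the KO intestine, and B4galnt2 at 8.53 and 8.21 in the mammary arrays of DKO animals N5895 and N5892. Whether these probe sets lie in the deleted part of each gene is not given in the sources used here, so they check nothing about the labels.

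Sequence upstream of the start was at hand for 6 of the 10 genes (RefSeq, build GRCm38.p6). The windows of 5 genes are shown because Galnt13, Galnt14 and Galnt16 all had their highest mean level in brain, Galnt6 in intestine and Galnt3 in testes. Each run holds the 250 bases before a start listed in the RefSeq promoter table (for Galnt16 and Galnt6, which have several, the one farthest upstream), 5′ to 3′ on the gene's strand, with GGGCGG or its complement CCGCCC (the GC box) in capitals. For Galnt13, Galnt14, Galnt3 and Galnt5 the gene record of the same build reaches further upstream than the listed start, so other transcripts may start elsewhere. Galnt13 is at chr2:54436137-54436386 (+), Galnt14 at chr17:73710452-73710701 (-), Galnt16 at chr12:80518221-80518470 (+), Galnt6 at chr15:100729377-100729626 (-) and Galnt3 at chr2:66124794-66125043 (-).
Galnt13: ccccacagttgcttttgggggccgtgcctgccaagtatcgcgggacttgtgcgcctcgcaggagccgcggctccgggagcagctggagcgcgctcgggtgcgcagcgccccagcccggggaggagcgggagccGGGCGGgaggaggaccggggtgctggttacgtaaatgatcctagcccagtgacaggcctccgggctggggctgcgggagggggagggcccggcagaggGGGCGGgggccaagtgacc
Galnt14: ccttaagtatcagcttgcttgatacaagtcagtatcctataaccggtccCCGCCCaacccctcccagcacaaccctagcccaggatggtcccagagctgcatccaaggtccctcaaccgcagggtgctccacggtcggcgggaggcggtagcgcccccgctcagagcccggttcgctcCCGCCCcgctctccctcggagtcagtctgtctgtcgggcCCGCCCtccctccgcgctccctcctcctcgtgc
Galnt16: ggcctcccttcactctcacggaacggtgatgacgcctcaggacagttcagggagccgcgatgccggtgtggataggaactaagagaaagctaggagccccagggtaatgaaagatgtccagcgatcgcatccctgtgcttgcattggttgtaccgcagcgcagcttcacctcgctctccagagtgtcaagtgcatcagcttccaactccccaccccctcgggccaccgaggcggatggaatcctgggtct
Galnt6: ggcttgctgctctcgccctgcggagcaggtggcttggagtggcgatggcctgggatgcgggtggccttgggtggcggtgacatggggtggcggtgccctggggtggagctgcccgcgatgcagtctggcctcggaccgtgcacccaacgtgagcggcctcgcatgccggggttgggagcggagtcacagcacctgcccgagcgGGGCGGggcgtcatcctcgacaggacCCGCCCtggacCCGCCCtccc
Galnt3: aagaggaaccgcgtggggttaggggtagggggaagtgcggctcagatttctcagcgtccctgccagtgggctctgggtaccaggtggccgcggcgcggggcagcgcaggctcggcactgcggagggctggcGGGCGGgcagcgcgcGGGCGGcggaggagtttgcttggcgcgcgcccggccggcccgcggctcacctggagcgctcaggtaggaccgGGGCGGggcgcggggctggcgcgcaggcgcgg

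The GC box occurred 2 times before Galnt13 and 3 times each before Galnt14, Galnt6 and Galnt3, and not in the windows of Galnt16 or Galnt5. That is 4 of these 6 windows, against 32.7% of 32851 mouse windows of the same length on either strand. GC content was 73.6% for Galnt13, 66.4% for Galnt14, 59.2% for Galnt16, 72.8% for Galnt6, 76.8% for Galnt3 and 54.0% for Galnt5, with a median of 52.4% over all windows. CpG pairs numbered 23, 19, 14, 22, 34 and 3 in the same order, with a median of 6. TATAAA (12.4% of all windows, either strand) and CACGTG (6.02%) were in none of these 6 windows. CAGCTG (13% of all windows) occurred once before Galnt13 and 2 times before Galnt5. The windows shown for the brain-high genes Galnt13 and Galnt16 thus differed in these letters. The other listed Galnt16 starts had 67.2% and 70.4% GC and 23 and 31 CpG pairs, nearer to Galnt13, and also no GC box. Galnt14, also highest in brain, had GC boxes as Galnt13 did. A match is a description of the letters and not a measured binding site.

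Across tissues, 9 of 80 gene and tissue pairs were called higher and 9 lower, where called means an adjusted p under 0.05 (limma, Benjamini-Hochberg over all 963 named probe sets) and a log2 difference of at least 1 from the mean of the other 7 tissues. Intestine had the most members called higher: Galnt6, Galnt4, Galnt12 and Galnt1. Brain had Galnt13 and Galnt16, lymph node had Galnt12 and Galnt6, and testes had Galnt3. Testes had the most members called lower, namely Galnt4, Galnt2 and Galnt1. Galnt5 and Galnt14 were called in no tissue, and mammary gland and the arrays labelled thymus had no call among the members. Among the arrays of the 2 lines in this fit, no array of the tissue overlapped any array of another tissue in 6 of the 18 called pairs, against 22.4% of the 1650 called pairs of all named probe sets: Galnt13 and Galnt16 high in brain, Galnt6 high in intestine, Galnt16 low in intestine, and Galnt2 and Galnt4 low in testes.

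**Figure D1:**
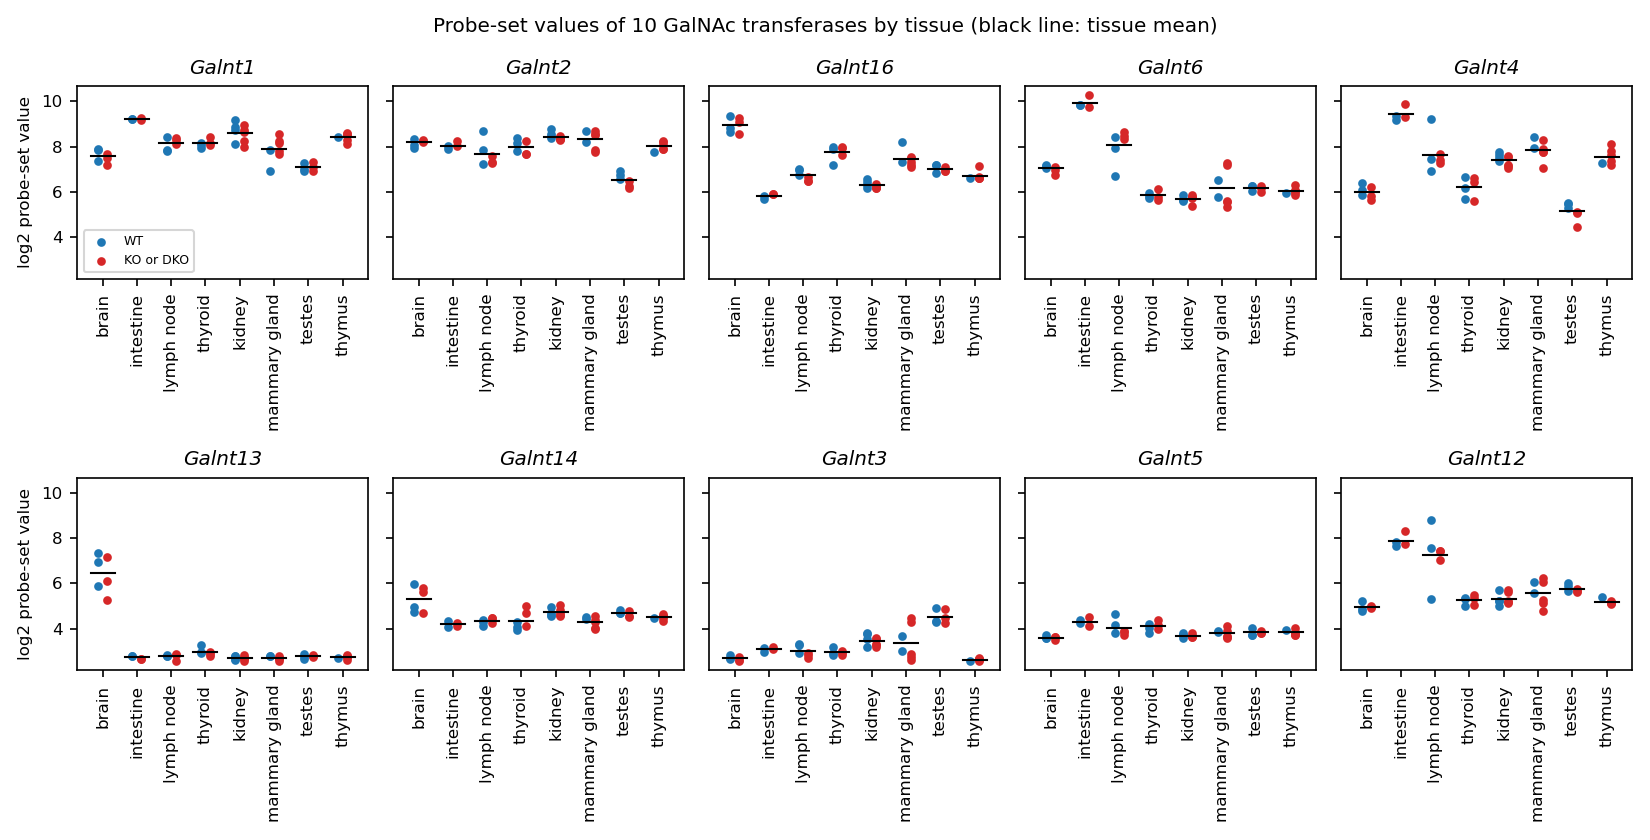
Each panel plots 1 gene's log2 probe-set value (vertical axis) by tissue (horizontal axis), with a point per animal, WT in blue and KO or DKO in red, and a black line at the tissue mean. Galnt13 stands near 2.8 everywhere but brain, where it spans 5.26 to 7.32, and Galnt6, Galnt4 and Galnt12 peak in intestine.

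The share of all named probe sets called gives the background for these counts. In brain 2 of 10 members were higher and 2 lower, against 16.2% and 17.4% of all probe sets. In intestine 4 were higher and 1 lower, against 13% and 16.3%. In lymph node 2 were higher and 0 lower, against 11.3% and 8.62%, and in testes 1 was higher and 3 lower, against 8.93% and 19.3%. In thyroid 0 were higher and 2 lower, against 6.44% and 7.48%, and in kidney 0 and 1, against 11.1% and 8%. In mammary gland and thymus there were none, against 10.6% and 2.8%, and 9.35% and 4.47%. In either direction, 4 of 10 members were called in brain against 33.6% of all probe sets, 5 in intestine against 29.3%, 2 in lymph node against 19.9% and 4 in testes against 28.2%. In thyroid it was 2 against 13.9% and in kidney 1 against 19.1%, while mammary gland and thymus had 0 against 13.4% and 13.8%. The members' median difference in intestine was 0.30, where that of all probe sets was -0.28. In testes it was -0.35 against -0.08. Tissue means of 6 of 10 members spanned more than the median span of all probe sets, 1.97.

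**Figure D2:**
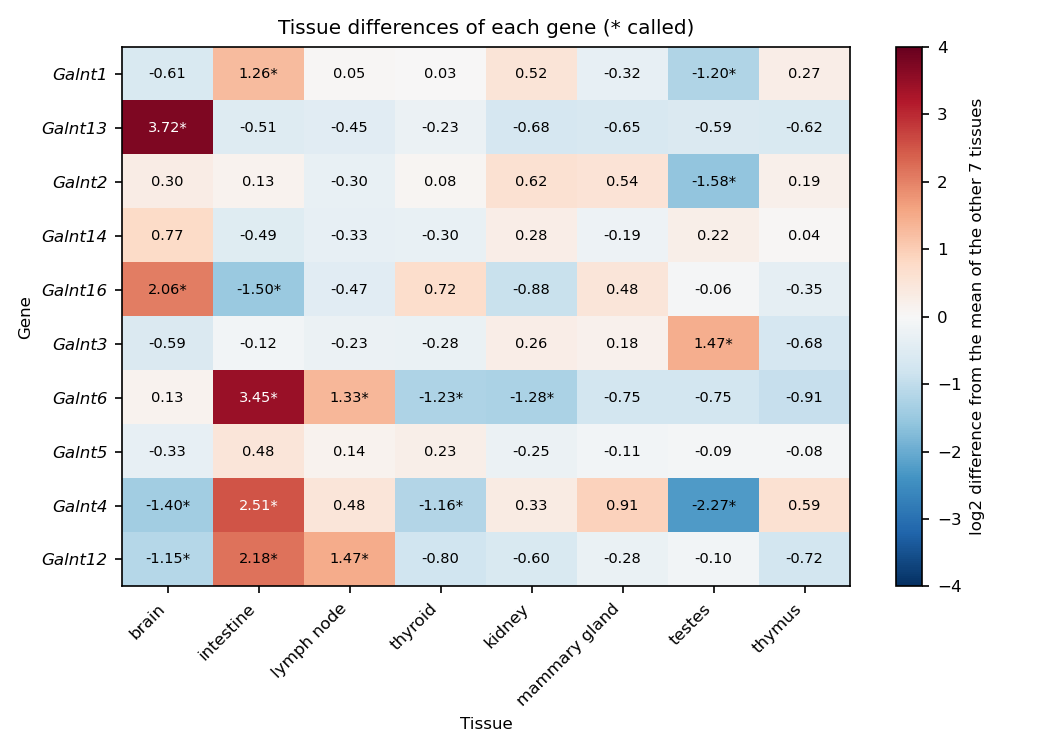
The grid gives, for each gene (rows, close relatives adjacent) and tissue (columns), the log2 difference from the mean of the other 7 tissues, red for higher and blue for lower, with an asterisk on the 18 called pairs. Intestine holds 4 positive asterisks and testes 3 negative ones, while the rows of Galnt5 and Galnt14 hold none.

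Galnt1 is one of the most widely used starters of the family, and its close relative Galnt13 is known as the neural form. Galnt1 was present in every tissue, with tissue means from 7.09 in testes to 9.21 in intestine. The intestine arrays read 9.22 and 9.22 in WT and 9.17 and 9.25 in KO animals. Of all arrays of other tissues in both lines, 1 kidney at 9.18 reached that range. The difference from the other tissues was 1.26 ± 0.18 (SE, n = 4, 2.39-fold, adjusted p = 3.39e-08). In the tissue comparisons the SE pools the spread over all tissues, so it is not the spread within 1 tissue. The 3 C57 intestines, which were outside this fit, were lower at 7.37, 8.48 and 8.85. In testes the values ran from 6.91 through a median of 7.06 to 7.30, which is 2.29-fold lower (-1.20 ± 0.15, n = 6, adjusted p = 8.28e-10). Quantile normalizing the arrays again gave a testes difference of -0.67, under the fold rule.

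Galnt13 showed the sharpest pattern. Brain values in the St6galnac2 line were 5.87, 6.93 and 7.32 in WT and 5.26, 6.12 and 7.14 in KO animals. Every array of the other 7 tissues lay between 2.59 and 3.30, far below the 25th percentile of all values, so brain did not overlap them. No detection calls were used here, so whether those low values are signal or background is unknown and the fold below is that of the probe-set values only. The difference was 3.72 ± 0.14 (n = 6, 13.2-fold, adjusted p = 6.14e-27). That SE is the pooled one, while the SD of the 6 brain values alone was 0.82. Between thyroid, lymph node, testes, thymus, intestine, mammary gland and kidney no neighbours in the order of Galnt13 means passed the test. Against the other 3 tissues of the same line, brain among them, Galnt13 was also called lower in intestine (-1.33), lymph node (-1.26) and thyroid (-1.01).

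Galnt2, a broad enzyme known for O-glycans on plasma proteins of lipid metabolism, was lowest in testes and above the mean of the others in kidney (0.62 ± 0.12, adjusted p = 1.29e-05) and mammary gland (0.54 ± 0.14, adjusted p = 0.0009), both under the fold rule. WT testes read 6.56, 6.73 and 6.92, and DKO testes 6.15, 6.25 and 6.50. Every array of another tissue was at 7.23 or higher. The difference was -1.58 ± 0.14 (n = 6, 2.99-fold lower, adjusted p = 5.17e-14). From kidney (mean 8.44) down to lymph node (7.66), neighbouring tissues did not pass the test of their difference.

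Galnt16, a relative of Galnt2, was high in brain and low in intestine. Brain gave 8.63, 8.83 and 9.33 in WT and 8.53, 9.07 and 9.26 in KO animals, above the highest value elsewhere, 8.22 in a mammary gland. The difference was 2.06 ± 0.12 (n = 6, 4.18-fold, adjusted p = 8.53e-20). Intestine lay at the other end with 5.68 and 5.83 in WT and 5.89 and 5.90 in KO animals, below the lowest value elsewhere in these lines, 6.15. The C57 small intestines, outside this fit, read 6.28, 6.46 and 6.47, within the kidney range. It was 2.82-fold lower (-1.50 ± 0.14, n = 4, adjusted p = 8.77e-13). With all 60 arrays the difference was -0.88, under the fold rule. In the order of means, brain over thyroid, mammary gland over testes, testes over lymph node, thymus over kidney and kidney over intestine passed the test of the pair.

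Galnt14, the remaining member of that trio, was highest in brain at 4.67 to 5.99 (median 5.29) but overlapped with kidney, thyroid and testes. Its brain difference of 0.77 ± 0.13 (adjusted p = 1.49e-06) fell short of the fold rule, and within its own line it was 1.01 and called. In total 20 of 56 arrays gave Galnt14 a value under the 25th percentile of all values.

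Galnt3 initiates O-glycans on FGF23, the phosphate hormone, and Galnt6 is its closest relative. Galnt3 was dim on this array: 52 of 56 arrays lay under the 25th percentile. Testes stood above the rest with 4.30, 4.35 and 4.91 in WT and 4.26, 4.47 and 4.87 in DKO animals, a difference of 1.47 ± 0.16 (n = 6, 2.76-fold, adjusted p = 2.74e-11). Only the mammary arrays of DKO animals N5895 (4.49) and N5892 (4.32) reached that range.

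Galnt6 had a very different pattern. Intestine read 9.84 and 9.85 in WT and 9.77 and 10.29 in KO animals, and no other array of these lines exceeded 8.62. The difference was 3.45 ± 0.23 (n = 4, 10.9-fold, adjusted p = 2.08e-17). Lymph node followed with 6.70, 7.93 and 8.44 in WT and 8.34, 8.44 and 8.62 in KO animals (1.33 ± 0.20, n = 6, 2.51-fold higher, adjusted p = 1.43e-07). Kidney (5.38 to 5.88, median 5.73, n = 9) and thyroid (5.65 to 6.13, median 5.80, n = 6) were lower, at -1.28 ± 0.17 and -1.23 ± 0.20, with adjusted p-values of 6.7e-09 and 1e-06. Within the own line the lymph node difference was 0.48 and the kidney difference -0.42, so both calls were lost there. The order intestine, lymph node, brain, mammary gland was separated at each step, and the 5 lowest tissues were not separated from their neighbours.

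Galnt4 acts on P-selectin glycoprotein ligand and other mucin-like proteins, and Galnt12 is its closest relative. Galnt4 had the widest span of tissue means, 4.28 log2 units or 19.4-fold from intestine to testes. Intestine values were 9.17 and 9.36 in WT and 9.31 and 9.86 in KO animals (2.51 ± 0.23, n = 4, 5.72-fold higher, adjusted p = 9.81e-13). Testes values were 5.28, 5.48 and 5.50 in WT and 4.43, 5.07 and 5.12 in DKO animals (-2.27 ± 0.19, n = 6, 4.82-fold lower, adjusted p = 4.01e-14). Brain (5.64 to 6.38, median 5.98) and thyroid (5.61 to 6.66, median 6.32) were lower, at -1.40 ± 0.20 and -1.16 ± 0.20, with adjusted p-values of 4.52e-08 and 3.39e-06. With KO and DKO arrays alone, the thyroid difference was -0.98. Mammary gland, at 0.91 ± 0.19, was just under the fold rule and was called at 1.19 within its own line and at 1.03 with all 60 arrays.

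Galnt12, known from the lining of the gut, was called higher in intestine and lymph node. Intestine read 7.63 and 7.82 in WT and 7.74 and 8.29 in KO animals (2.18 ± 0.26, n = 4, 4.53-fold, adjusted p = 9.73e-10). Lymph node read 5.29, 7.56 and 8.78 in WT and 7.04, 7.42 and 7.42 in KO animals (1.47 ± 0.22, n = 6, 2.78-fold, adjusted p = 2.43e-07). The SD of those 6 lymph node values alone was 1.13. Intestine and lymph node overlapped and did not pass the test against each other. Brain, at 4.78 to 5.21 (median 4.92), was lower (-1.15 ± 0.22, adjusted p = 1.38e-05). Quantile normalizing the arrays again gave -0.99, under the fold rule. Thyroid, at -0.80 ± 0.22 (adjusted p = 0.00212), was not called, but was called with all 60 arrays (adjusted p = 0.0144) and at -1.43 within its own line.

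Galnt5, the lone member of its branch, varied least. Its tissue means ran from 3.61 in brain to 4.31 in intestine, 54 of 56 arrays were under the 25th percentile, and no neighbouring tissues passed the test of the pair. The largest difference was 0.48 ± 0.10 in intestine (adjusted p = 6.76e-05), below the fold rule.

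Over all genes' orders, 18 of 70 neighbouring pairs of tissues passed the pairwise test (limma, adjusted p under 0.05 over all named probe sets within each pair), against 22.7% of 6741 such pairs when the tissues were put in order for every named probe set in the same way. Neighbours are the closest means by construction, so these tests describe the orders and support nothing further.

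The members' tissue patterns can be set side by side by Pearson r over the 8 tissue means, as a description only, since the points share arrays and lines. The closest members were Galnt6 and Galnt12 (r = 0.893), Galnt1 and Galnt4 (0.872) and Galnt13 and Galnt14 (0.841). These were picked as the highest of all member pairs, and no relatives by sequence were among them. For the relatives r was -0.362 for Galnt1 and Galnt13, -0.209 for Galnt3 and Galnt6 and 0.0002 for Galnt2 and Galnt14. It was 0.070 for Galnt2 and Galnt16, 0.653 for Galnt14 and Galnt16, and 0.651 for Galnt4 and Galnt12. Among 692 other genes whose tissue means spanned at least 1 log2 unit, the most alike were St8sia3 and Spock3 for Galnt13 (0.997 and 0.996), Il20rb and Galnt17 for Galnt16 (0.984 and 0.977), B3gnt6 and Fut4 for Galnt12 (0.976 and 0.945), Lgals9 and Il13ra1 for Galnt4 (0.964 and 0.932) and Junb and B3gnt6 for Galnt6 (0.954 and 0.943). They were Slc35a1 and Vegfa for Galnt2 (0.952 and 0.946), Pomt1 and Ndst2 for Galnt3 (0.952 and 0.933), Shh and Cntfr for Galnt14 (0.953 and 0.938), Colec10 and Mad2l1bp for Galnt5 (0.932 and 0.873) and Il13ra1 and Rfk for Galnt1 (0.929 and 0.926). St8sia3 is also 1 of the 8 neural markers. B3gnt6 reached 9.43 in the lymph node of WT animal 9362 and 4.49 or less in the other 5 lymph nodes, and with all 60 arrays its r was 0.628 with Galnt12 and 0.471 with Galnt6.

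Other genes of the pathway, from lists of related enzymes, were read in the same fit. The shares of all named probe sets called higher and lower were 16.2% and 17.4% in brain, 13% and 16.3% in intestine, 11.1% and 8% in kidney, 8.93% and 19.3% in testes and 11.3% and 8.62% in lymph node, and with so few genes a list many of these counts lie near those shares. The follow-on and other family members (9 measured) had 3 higher and 1 lower in brain, led by Galnt9 (2.68 ± 0.09) and Galnt17 (2.22 ± 0.14). In intestine 2 were higher and 4 lower, with Galnt7 at 1.85 ± 0.26. In kidney 2 were higher and 1 lower, with Galnt11 at 3.88 ± 0.08. In testes 2 were higher and 1 lower, with Galntl5 at 8.28 ± 0.15. Among 6 genes for making or extending O-glycan cores, 5 were higher and 1 lower in intestine (Gcnt3 3.48 ± 0.14, B3gnt3 3.43 ± 0.09), and 0 were higher and 4 lower in brain (C1galt1 -1.15 ± 0.10). In testes 0 were higher and 2 lower, with C1galt1c1, the chaperone of core 1 synthase, at -2.87 ± 0.12. Of 23 listed mucins and mucin-like carriers 13 were measured, among them Cd34, Emcn and Glycam1 but not Muc2. In intestine 1 was higher and 4 lower (median difference -0.55), the higher one being Muc13 at 5.85 ± 0.12. These counts do not describe the mucins of the gut as a whole. In lymph node 1 was higher and 0 lower, with Glycam1 at 8.14 ± 0.30. Among 11 genes listed under UDP-GalNAc supply, 4 were higher and 2 lower in intestine, and 4 higher and 1 lower in kidney. The kidney calls were led by Slc35b4 (1.98 ± 0.10) and Gnpda1 (1.58 ± 0.07). The list holds enzymes and transporters that are not particular to UDP-GalNAc, and the supply itself was not measured.

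Some arrays carried markers of other tissue beside member levels. The lymph node of WT animal 9362 had Prol1, a gene of exocrine glands, at 11.08 (2.41 to 5.12 in the other 5), with the highest Galnt12 (8.78) and Galnt4 (9.19) of that tissue. The lymph node of WT animal 9094 had the lowest Ccr7 (6.24, others 9.28 to 10.01) and Cd22 (8.74, others 10.37 to 11.02) and the highest Lum (9.32), with the lowest Galnt12 (5.29) and Galnt6 (6.70) and the highest Galnt2 (8.68). Without both arrays, the lymph node differences were 1.59 for Galnt12 and 1.60 for Galnt6, both called. Without 9362 alone they were 1.09 and 1.21, and without 9094 alone 1.94 and 1.64, all called. In mammary gland, Prol1 was at 9.74 to 12.47 in 4 arrays (WT N3738 and N9686, DKO N5892 and N5895) and at 2.52 to 2.61 in the other 3. Galnt6 was 7.29, 7.17 and 6.53 in N5895, N5892 and N9686 and 5.32 to 5.77 in the other 4, and Galnt3 was 4.49, 4.32 and 3.66 against 2.63 to 2.99. The other 4 include N3738, which was high in Prol1 but read only 5.77 for Galnt6 and 2.99 for Galnt3. The part of gland tissue in these levels was not tested beyond leaving out the 2 lymph node arrays.

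Brain arrays also differed among animals of 1 genotype. Galnt13 was 7.32, 7.14 and 6.93 in animals 9362 (WT), 9100 (KO) and 9099 (WT), and 5.26 to 6.12 in the other 3 of the line. Galnt14 was 4.73, 4.67 and 4.96 in the same 3 and 5.63 to 5.99 in the other 3, and Galnt16 was 8.63, 8.53 and 8.83 against 9.07 to 9.33. Galnt1 was 7.89, 7.68 and 7.84 against 7.18 to 7.48. Galnt4 was 6.08 to 6.38 against 5.64 to 5.88, Galnt6 7.11 to 7.18 against 6.72 to 7.07, and Galnt5 3.50 to 3.59 against 3.62 to 3.73. Galnt2, Galnt3 and Galnt12 overlapped between these sets of animals. The sets were formed from the Galnt13 values after seeing them. The share of all probe sets that split likewise was not counted, so the split is a description only. Among the 3 C57 brains, GDWTF2 had the highest Galnt13 (7.19), the lowest Galnt14 (5.35), the lowest Galnt16 (9.23) and the highest Galnt1 (7.51). The 3 line animals include both genotypes, and all 3 are male, while the other 3 are both females of the line (9093 and 9094) and the male 9361. The part of sex in these levels was not tested.

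**Figure D3:**
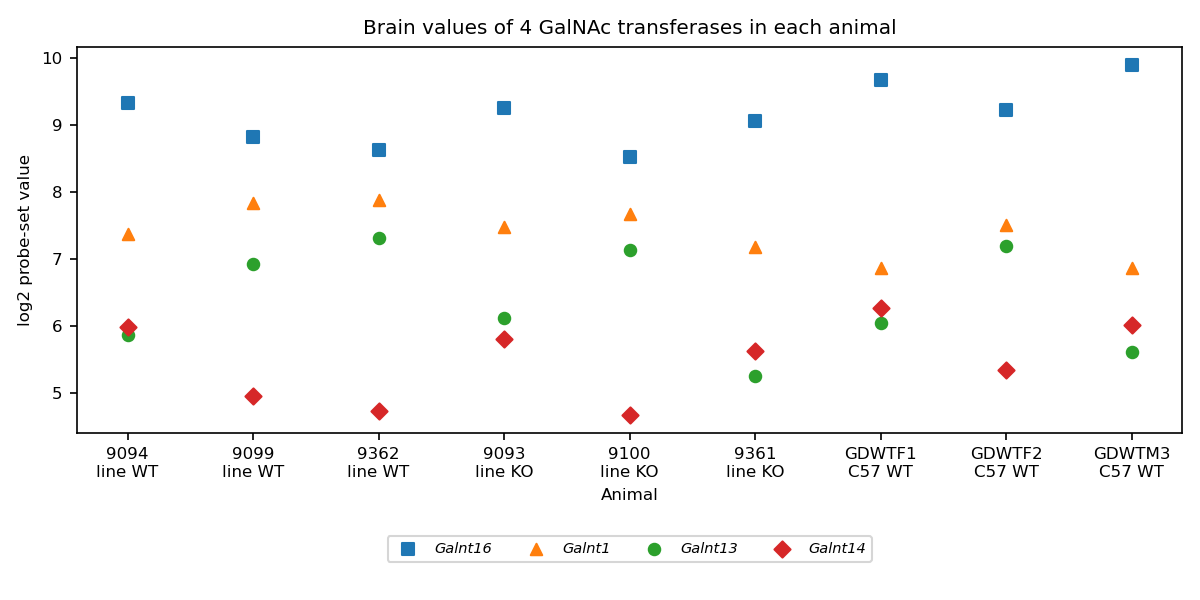
The plot gives the log2 value (vertical axis) of Galnt16, Galnt1, Galnt13 and Galnt14 in each of 9 animals' brains (horizontal axis, with line and genotype). Galnt13 is above 6.9 in animals 9099, 9362, 9100 and GDWTF2, where Galnt14 is lower than in every other brain.

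The deletion comparisons ask whether loss of St6galnac2, or of B4galnt1 and B4galnt2, went with a change in the enzymes that start O-glycans. No member was called at an adjusted p under 0.05 in any of the 8 tissues (limma with sex as a term where both sexes were present). Over all named probe sets 0 were called in brain, intestine, lymph node, thyroid, mammary gland and thymus, 1 in kidney (0.104%) and 3 in testes (0.312%). At an unadjusted p under 0.05 there were 3 of 80 member and tissue pairs, where the shares of all probe sets ran from 1.87% in brain to 13.4% in kidney. In testes, Galnt2 was lower in the arrays labelled DKO (6.15, 6.25 and 6.50) than in WT (6.56, 6.73 and 6.92), with no overlap and a difference of -0.44 ± 0.14 (adjusted p = 0.290). Galnt4 in testes likewise did not overlap, at 4.43, 5.07 and 5.12 against 5.28, 5.48 and 5.50 (-0.55 ± 0.18, adjusted p = 0.290). Outside thymus the groups did not overlap in 6 pairs. The rest were Galnt3 and Galnt16 in lymph node and Galnt13 and Galnt16 in intestine. The share of all probe sets without overlap was not counted, so the lack of overlap is a description only. In kidney Galnt4 was 7.04 to 7.60 in 5 DKO and 7.35 to 7.74 in 4 WT animals (-0.29 ± 0.11, adjusted p = 0.334), and the groups overlapped.

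In lymph node, Galnt16 was 6.48, 6.49 and 6.64 in KO and 6.74, 6.99 and 7.02 in WT animals (-0.37 ± 0.15, adjusted p = 0.801), and Galnt3 was 2.72, 2.84 and 2.91 against 2.95, 3.27 and 3.32 (-0.36 ± 0.17, adjusted p = 0.801). Galnt6 in lymph node had the largest difference of the 80, 0.78 ± 0.40 (8.34, 8.44 and 8.62 in KO, 6.70, 7.93 and 8.44 in WT, adjusted p = 0.801). Without WT animal 9094 it was 0.21. Galnt1 in mammary gland followed at 0.68 ± 0.29 (7.69 to 8.55 in 5 DKO, 6.90 and 7.83 in 2 WT, adjusted p = 0.477). Of 80 differences, 75 were under 0.5 log2 units in size and 69 had a 95% interval within 1 unit of 0. The outermost bounds were -1.97 for Galnt13 in brain and 1.93 for Galnt12 in lymph node. The thymus comparison had 1 WT animal. The test of whether the knockout effect differed between tissues called no member in either line (0% of all probe sets in the St6galnac2 line, 0.623% in the other).

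**Figure D4:**
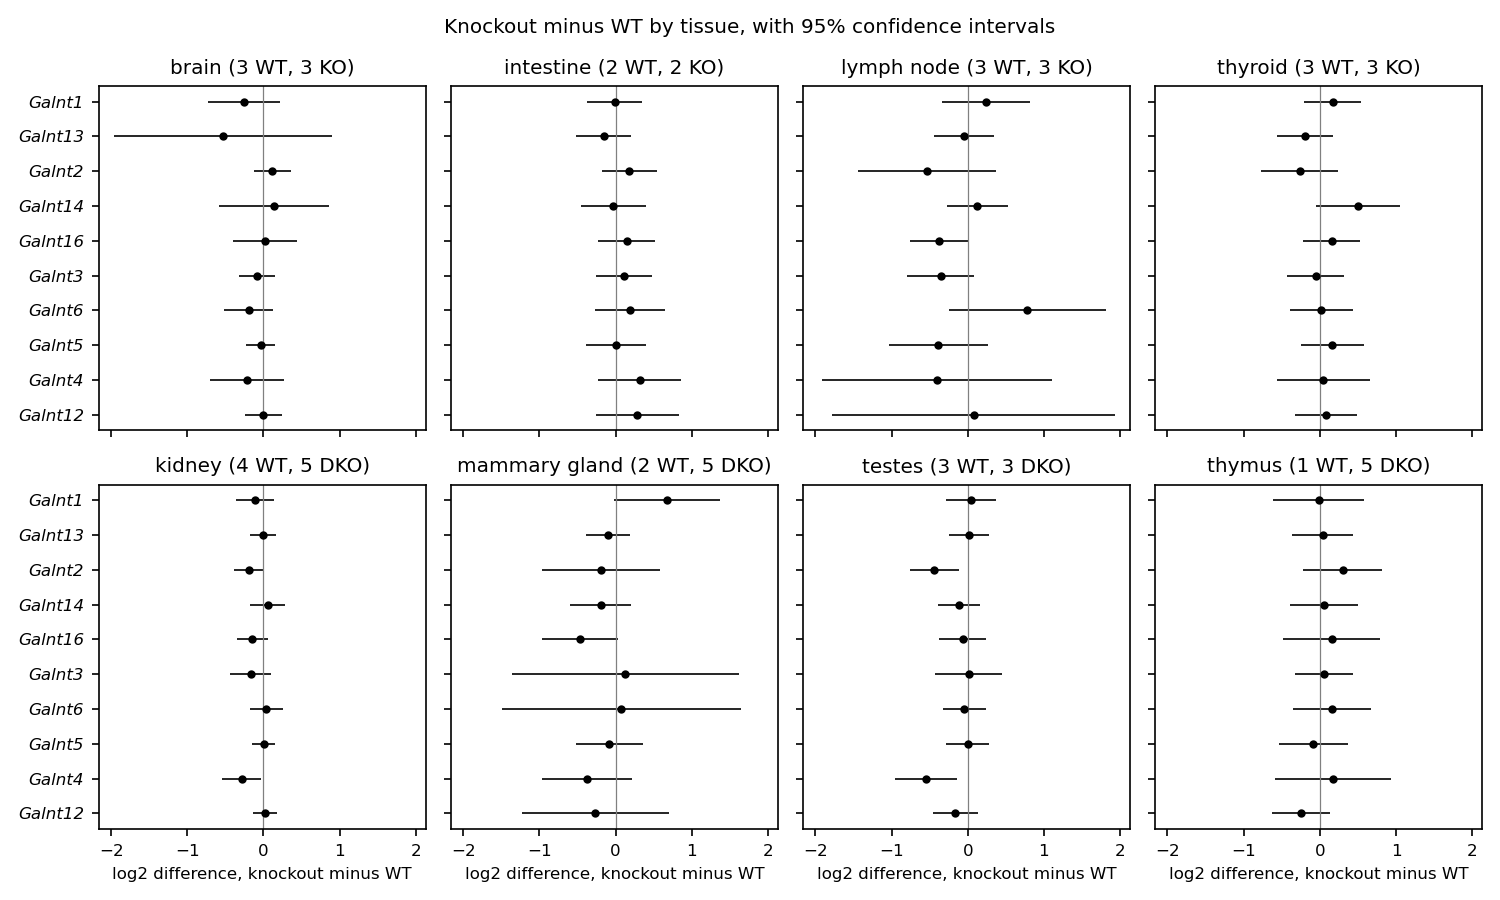
Each panel gives for 1 tissue the log2 difference of KO or DKO minus WT (horizontal axis) for the 10 genes (vertical axis), with bars for the 95% confidence interval. Of the 80 intervals 77 include 0, the exceptions being Galnt2 and Galnt4 in testes and Galnt4 in kidney.

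Differences between males and females were read for kidney and for mammary gland only. Brain, intestine, lymph node, thyroid and the arrays labelled thymus also held both sexes. There sex was only a term in the knockout fits, and its differences were not read. In kidney, Galnt1 was higher and Galnt12 lower in males. Galnt1 was 8.63 to 9.18 in 6 males (median 8.81) and 7.97, 8.10 and 8.23 in 3 females, without overlap (0.73 ± 0.12, 1.66-fold, adjusted p = 0.00338). Galnt12 was 5.01 to 5.21 in the males and 5.61, 5.69 and 5.71 in the females, again without overlap (-0.51 ± 0.08, 1.42-fold lower, adjusted p = 0.00241). That is 1 of 10 members higher in males, against 2.6% of all probe sets, and 1 lower, against 6.44%, or 2 in either direction against 9.03%. Those shares are of calls, and the share of all probe sets without overlap between the sexes was not counted. The other 8 members differed by at most 0.24 in size and did not pass. Marker levels also differed by sex in kidney. The mean of the 6 connective-tissue markers was 8.06, 8.11 and 8.34 in the females and 7.47 to 7.84 in the males. That of the 8 neural markers was 5.44, 5.51 and 5.51 against 5.69 to 6.14. In kidney 2 of these 8 were called higher than in the other tissues, Fut9 (6.29 ± 0.21) and Ugt8a (3.52 ± 0.31). Another 2 were lower and the median difference was -0.73, so this mean does not measure neural cells in kidney. The 2 kidney tubule markers overlapped (8.37 to 10.14 and 8.22 to 9.80). The part of cell types in the sex differences was not tested. Only 1 of the 3 females was WT, and the 4 WT and 5 DKO animals were fitted together with genotype as a term. In mammary gland no member was called, against 0.312% of all probe sets, with Galnt4 at -0.55 ± 0.22 in males (adjusted p = 0.427) and Galnt1 at 0.41 ± 0.26 (adjusted p = 0.632). The difference between kidney and mammary gland in the sex effect was not called for any member (Galnt1 0.32, adjusted p = 0.579, Galnt12 -0.04, adjusted p = 0.950).

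**Figure D5:**
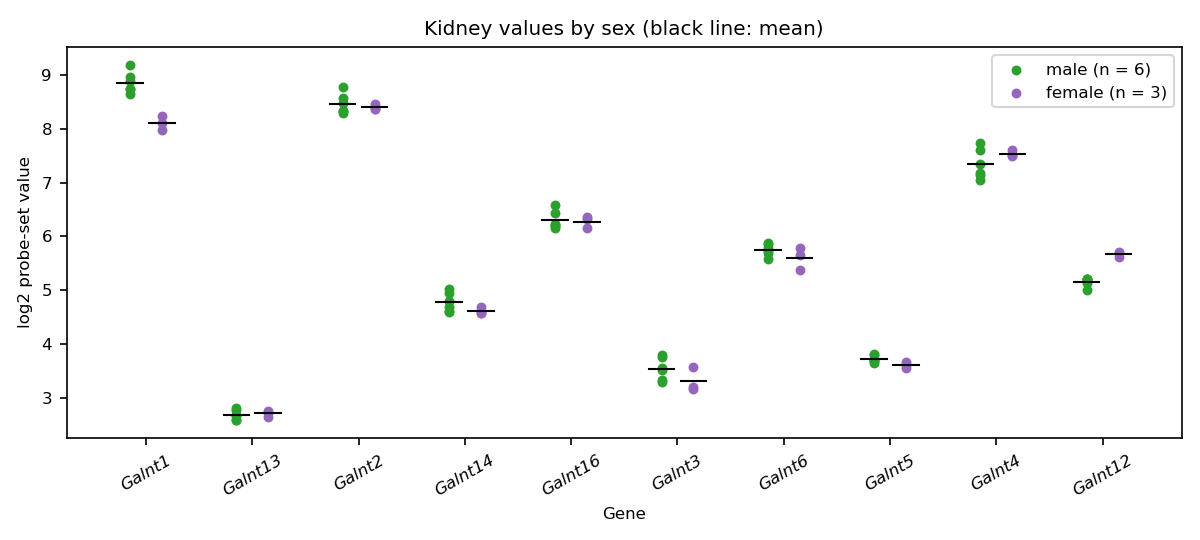
Kidney log2 values (vertical axis) of the 10 genes (horizontal axis) are shown per animal, green for 6 males and purple for 3 females, with a black line at each mean. The sexes separate for Galnt1 (males 8.63 to 9.18) and Galnt12 (males 5.01 to 5.21) and overlap for the other 8 genes. The share of all probe sets that separate likewise was not counted.

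The WT animals of the St6galnac2 line were set against the C57 WT animals. The gut samples are labelled intestine in the line and small intestine in C57, so the line and the part of the gut cannot be told apart there. No member passed in brain (0 of all probe sets called) or intestine (1 called, 0.104%). In brain Galnt2 was 7.95, 8.07 and 8.35 in the line and 8.54, 8.57 and 8.73 in C57 (-0.49 ± 0.13, adjusted p = 0.119). Without WT animal 9094 it was -0.61 and called (adjusted p = 0.044). Galnt16 was 8.63, 8.83 and 9.33 against 9.23, 9.67 and 9.91 (-0.67 ± 0.25, adjusted p = 0.165), and Galnt1 was 7.38, 7.84 and 7.89 against 6.86, 6.87 and 7.51 (0.63 ± 0.23, adjusted p = 0.165). In intestine Galnt4 was 9.17 and 9.36 against 9.78, 10.26 and 10.48 (-0.90 ± 0.25, adjusted p = 0.157), and Galnt16 was 5.68 and 5.83 against 6.28, 6.46 and 6.47 (-0.65 ± 0.17, adjusted p = 0.145). At an unadjusted p under 0.05 there were 3 members in brain, against 25.5% of all probe sets, and 4 in intestine, against 21.6%. The labels do not state the sex of the C57 animals, whose names hold M or F (GDWTM3, GDWTF2, GDWTF1), so sex was not a term here. Galnt13 was at 5.61, 6.05 and 7.19 in C57 brain and at 2.66, 2.72 and 2.86 in C57 intestine, so these tissues did not overlap in C57 animals either.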

How the data were processed

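Biotin-labelled cRNA from total RNA of 8 mouse tissues was hybridised to custom Affymetrix arrays. The deposited values are log2 expression per probe set, made by the authors with RMA, per the submitters' processing notes, which give no version; whether all arrays were normalized together is not given in the sources used here. Such values are relative to the other probe sets of an array, so a difference between tissues is not one in RNA per cell. Probe sets were named through their RefSeq transcript. Each array was correlated with the mean profile of its labelled tissue in other animals, after subtracting the mean over tissues, on 890 probe sets outside the family. Arrays with r under 0.3 were left out, which leaves 1 array per animal and tissue. limma 3.58.1 in R 4.3.3 was fitted over 963 named probe sets, with Benjamini-Hochberg adjustment within each comparison: each tissue against the mean of the other 7 with terms for each knockout, KO or DKO minus WT per tissue, male minus female, and line WT minus C57 WT. No filter was set on dim probe sets. Fits were tested on simulated data. The number of animals limits the precision. The labels name each animal, and 1 animal gave several tissues; over named probe sets the median correlation of deviations within an animal was -0.005 to 0.123 in the 4 groups of animals, and the animal was tried as a block.

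All 10 genes were tested in each comparison, while the knockout, sex and C57 passages name only some of them. For likeness the 2 closest genes of each member are named. The genes and lists were chosen with earlier results of these data known. Alternatives covered the arrays left out, the block, the line, genotype, sex, scaling, dim probe sets and each animal.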

Additional observations from a re-analysis of the deposited data

Results flagged for a closer look

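Among 40 sets of 4 to 5 arrays of 1 gene in 1 group, 1 array stood apart by Dixon's criterion, where chance gives about 1 in 20: Galnt16 in the DKO array labelled thymus of animal N5893 read 7.15, while the other 4 lay between 6.60 and 6.65.

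The 4 arrays left out of the comparisons held member levels at least 1 log2 unit above every other array of their labelled tissue in 10 cases. The WT brain array of animal 9099 that matched intestine had Galnt1 at 9.04, Galnt4 at 9.80, Galnt6 at 9.86 and Galnt12 at 8.13, where the highest values in the 9 other brain samples were at 7.89, 6.87, 7.43 and 5.27. The WT intestine array of the same animal, which matched brain, had Galnt13 at 6.91 and Galnt16 at 8.61, where the highest values in the 7 other intestine samples were at 2.86 and 6.47. The WT thymus arrays of N3740 and N3738 had Galnt3 at 4.44 and 4.77, against at most 2.72 in the other 6, and Galnt12 at 7.61 and 7.56, against at most 5.38. On both arrays Prol1, a gene of exocrine glands, was above 13 (13.4 and 13.5), while it was at most 2.61 in the other 6.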

How the results depend on the processing

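The count of tissue calls among the members, 18, was 16 to 23 over the 13 other settings, with the animal as a replicate block at 18, and 18 to 19 without each animal in turn. Of the neighbour pairs, 18 passed, 17 with that block and 11 with all arrays under their labels. The most alike gene stayed the same for 4 of 10 members with all arrays. The C57 count of 0 became 1 without animal 9094 (range 0 to 1). Knockout counts stayed at 0 and sex counts at 2 under every setting that was run. Of 3544 values of single genes under other settings, 3522 kept their call, 6 lost it, 16 gained it, and 0 called values changed direction. Some uncalled ones changed sign, such as Galnt6 in mammary gland (-0.75, and 0.20 within its line). Quantile normalizing again moved the median difference of all genes by up to 0.12. The intestine knockout fits without 9093, 9094, 9361 or 9362, and the thymus fit without N9700, could not be fitted, since too few animals were left. Leaving out both lymph node arrays or those labelled thymus, and the pairwise settings, were chosen after seeing the data. Galnt3, Galnt5 and Galnt13 lay below the 25th percentile of all values on most arrays, which limits what their probe sets can show.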
